A study of Mus musculus with 6 samples.

Results

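Guanylate-binding proteins (GBPs) are large interferon-inducible GTPases, and their 8 measured genes in mouse long-term hematopoietic stem cells are described here. The genes were selected on the family name (Gbp2, Gbp2b, Gbp3 and Gbp7 on chromosome 3, and Gbp4, Gbp8, Gbp9 and Gbp11 on chromosome 5) and on the measured near-absence of Gbp2b from one group. They are 8 of the 11779 genes in the deposited count table, and all 8 passed the filter on low counts that left 10869 genes. The related genes Gbp5, Gbp6 and Gbp10 were not found in the deposited count table, so they are missing from the values and sums here.

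The cells were bone marrow stem cells of female mice aged 8 weeks, sorted as CD48- CD150+ cells within the Lin- Sca1+ c-Kit+ fraction. The WT group (n = 3 libraries, numbered 1, 3 and 4) was c-Mycfl/+ without Cre. The HET group (n = 3, numbered likewise) was c-Mycfl/+Mx1Cre, so both groups carried 1 floxed Myc allele and differed by the Mx1-Cre transgene, whose recombinase deletes that allele once induced. Its interferon-responsive Mx1 promoter is active in many tissues and was switched on with 3 doses of poly(I:C), 6 mg/kg each, a double-stranded RNA analog that itself induces interferon. The labels do not say whether WT mice received it, what the strain background was, or whether a library was 1 animal. P-values therefore measure only the spread between these libraries. The libraries held between 4249490 and 9886223 counts, the largest being HET 1. Myc, the targeted gene, measured 447, 427 and 542 CPM (WT 1, 3, 4) against 294, 387 and 372 CPM (HET 1, 3, 4), so every HET library was lower than WT, although the edgeR adjusted p was 0.312 (log2 fold change -0.43 ± 0.12 SE).

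Interferon binds its receptors and activates JAK kinases and STAT factors, which drive GBP genes directly or through the factor IRF1. The proteins resemble dynamins: they bind GTP, assemble on membranes of intracellular pathogens or of the vacuoles that hold them, and help to expose bacterial contents to the inflammasome caspases. Some members, GBP2 among them, carry a lipid anchor added by prenylation enzymes. In blood stem cells, which leave dormancy when exposed to interferon, GBP transcripts serve as a readout of interferon signalling.

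Promoter windows of the 4 chromosome 3 genes are shown because the genes lie side by side in the same orientation while Gbp2b alone was nearly missing from HET. They come from RefSeq (GRCm38.p6), run from 250 bases before to 50 after the transcript start on the plus strand, and were found for 4 of the 8 genes. They are reference sequences, and the alleles of these mice were not read. Capitals mark matches on either strand to the core of the interferon-stimulated response element (GAAANNGAAA) or to the gamma-activated site (TTCNNNGAA, which reads the same on both strands). The windows are chr3:142530086-142530385 for Gbp7, chr3:142559794-142560093 for the first of 2 starts of Gbp3, chr3:142594597-142594896 for Gbp2b and chr3:142620413-142620712 for Gbp2.
Gbp7: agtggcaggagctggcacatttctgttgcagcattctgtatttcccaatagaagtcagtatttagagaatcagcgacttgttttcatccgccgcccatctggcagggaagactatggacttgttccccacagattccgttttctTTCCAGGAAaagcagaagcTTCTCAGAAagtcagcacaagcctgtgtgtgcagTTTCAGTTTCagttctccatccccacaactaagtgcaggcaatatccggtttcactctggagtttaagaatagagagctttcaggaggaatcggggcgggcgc
Gbp3: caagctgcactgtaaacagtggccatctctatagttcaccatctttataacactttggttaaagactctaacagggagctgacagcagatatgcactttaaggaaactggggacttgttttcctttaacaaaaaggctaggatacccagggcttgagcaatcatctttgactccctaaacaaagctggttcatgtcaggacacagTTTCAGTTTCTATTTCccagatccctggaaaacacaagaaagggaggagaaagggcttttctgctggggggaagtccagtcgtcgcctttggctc
Gbp2b: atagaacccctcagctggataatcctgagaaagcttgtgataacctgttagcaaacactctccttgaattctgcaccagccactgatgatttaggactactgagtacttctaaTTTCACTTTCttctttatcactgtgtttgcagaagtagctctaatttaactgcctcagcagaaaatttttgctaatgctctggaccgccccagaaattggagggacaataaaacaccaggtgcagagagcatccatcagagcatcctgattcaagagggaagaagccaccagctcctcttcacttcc
Gbp2: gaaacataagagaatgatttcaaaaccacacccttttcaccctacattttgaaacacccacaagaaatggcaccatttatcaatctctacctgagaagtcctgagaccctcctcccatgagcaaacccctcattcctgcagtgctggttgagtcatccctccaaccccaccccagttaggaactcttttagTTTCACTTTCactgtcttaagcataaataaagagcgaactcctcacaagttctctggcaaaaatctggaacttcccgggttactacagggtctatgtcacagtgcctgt

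Each of the 4 windows holds the response element core, which occurs in 3.44% of the 32851 promoter windows in the table. Gbp2b and Gbp2 have the same 10 letters, TTTCACTTTC, at -137 to -128 and at -59 to -50 from their starts. Gbp3 has 2 overlapping matches between -45 and -30, and the window of its other start has none. Gbp7 has 1 response element core at -53 to -44 and is the only one of the 4 with the gamma-activated site, at -106 to -98 and at -87 to -79. That site occurs in 8.3% of all windows. These are matches of letters, and binding was not measured.

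Across the 8 genes, Gbp2b was nearly missing from HET, Gbp2 was somewhat higher, and the other 6 overlapped between groups. The edgeR quasi-likelihood test over 10869 genes called 1 of the 8 genes lower in HET, Gbp2b (0.221% of all genes tested were called lower), and none higher (0.0368% of all genes). At an unadjusted p under 0.05 there were 2 of the 8, Gbp2b and Gbp2 (5.22% over all genes), and DESeq2 and limma-voom likewise called Gbp2b and no other member. All HET libraries lay below all WT libraries for 1 gene (5.64% over all genes) and above them for 1, Gbp2 (4.69%). Because this contrast entered the choice of the genes, nothing is read from these counts.

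Gbp2b (formerly named Gbp1, ENSMUSG00000040264; GRCm38 chromosome 3, 142594847 to 142619179, plus strand) encodes an interferon-inducible guanylate-binding GTPase. It had 131, 95 and 117 counts in WT 1, 3 and 4 against 9, 0 and 0 counts in HET 1, 3 and 4. In CPM, the count relative to the TMM-scaled library size, the values were 23.6, 17.4 and 27.9 in WT and 0.893, 0 and 0 in HET. All 3 HET libraries lay far below all 3 WT libraries, and the 9 counts of the group came from its deepest library. The exact 95% interval for counting error was 0.408 to 1.70 CPM in HET 1. The limit taken for a count of 0 was 3 counts, or 0.654 CPM in HET 3 and 0.585 CPM in HET 4. The upper ends of the exact 95% intervals were higher, at 0.805 CPM in HET 3 and 0.719 CPM in HET 4. The WT mean of 23.0 ± 5.29 CPM (SD, n = 3) was 35.1 times the 3-count limit of HET 3 and 39.3 times that of HET 4. It was 25.7 times the measured value of HET 1. Gbp2b was chosen for this difference, so the values are a description. In bulk RNA, fewer cells with a transcript and less transcript per cell cannot be told apart.

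Gbp2 (ENSMUSG00000028270; chromosome 3, 142620602 to 142638008, plus strand), a prenylated GBP of antimicrobial defence, starts just downstream of Gbp2b. It measured 81.9, 75.9 and 77.3 CPM in WT 1, 3 and 4 against 96.4, 103.8 and 122.4 CPM in HET 1, 3 and 4. The HET libraries were all above the WT libraries, the opposite side from its neighbour. The edgeR log2 fold change was 0.45 (95% interval 0.15 to 0.76, not adjusted for the number of genes), a ratio of 1.37. Gbp2 was not called (edgeR adjusted p = 0.495). Added together, Gbp2 and Gbp2b gave 105.5, 93.3 and 105.2 CPM in WT against 97.3, 103.8 and 122.4 CPM in HET, and these sums overlapped. Gbp2b made up 22.4%, 18.6% and 26.5% of that sum in WT 1, 3 and 4, and 0.917% in HET 1.

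Because these 2 genes are close paralogs (82.5% identity over 1770 coding bases), sharing of reads was examined in the GENCODE M21 transcripts. Of all stretches of 50 bases in the main Gbp2b transcript, 1.84% occur exactly in a transcript of another gene, and that gene is Gbp2. At 75 bases the share was 0.873%, and at 100 bases it was 0%. The Gbp2b transcript is thus almost wholly distinct in the reference; the counting program and the read length were not given in the sources used here.

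**Figure D1:**
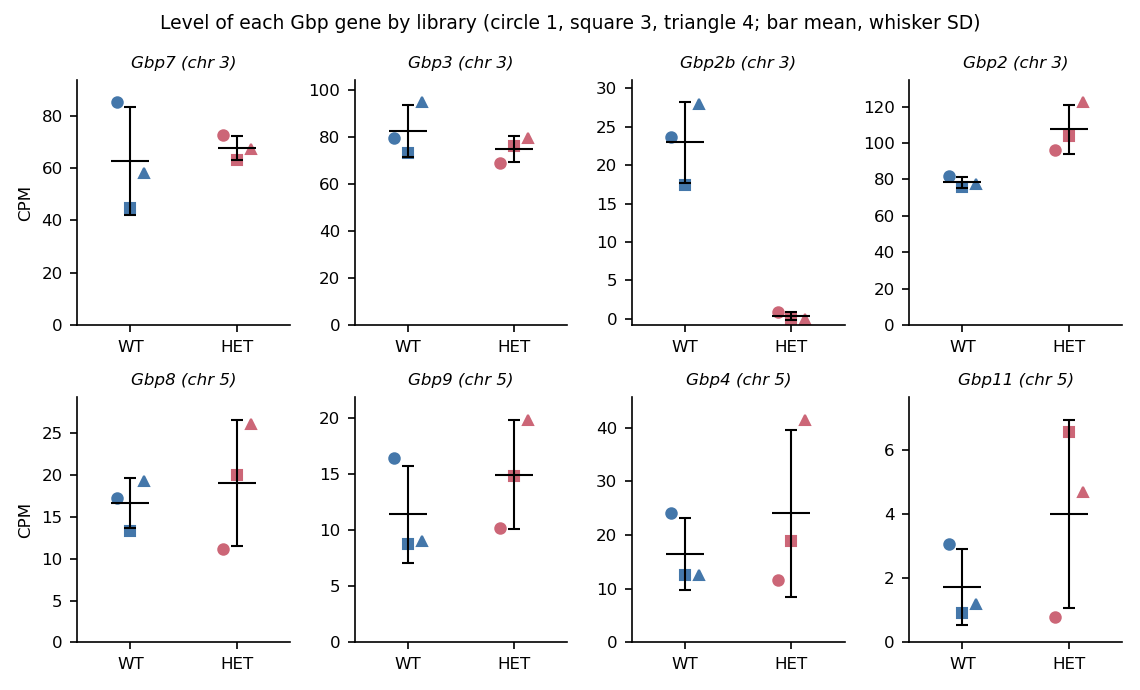
Level of each Gbp gene (vertical axis, CPM, each panel with its own scale) in the 3 WT and 3 HET libraries; points are libraries, bars are means and whiskers SD. Gbp2b sits at 17.4 to 27.9 in WT and at 0 to 0.893 in HET, Gbp2 is higher in each HET library, and the other 6 genes overlap between groups.

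The other pair of the chromosome 3 cluster overlapped between the groups. Gbp3 (ENSMUSG00000028268; 142560026 to 142573209), a GBP of the chromosome 3 branch, measured 79.9, 73.2 and 94.9 CPM in WT 1, 3 and 4 against 68.9, 76.1 and 79.7 CPM in HET 1, 3 and 4. Its log2 fold change was -0.14 (95% interval -0.47 to 0.19). Gbp7 (ENSMUSG00000040253; 142530342 to 142550149), whose protein has been linked to oxidative and autophagic defence against microbes, measured 85.2, 44.8 and 58.0 CPM in WT against 72.5, 63.2 and 67.2 CPM in HET. Its highest and lowest libraries were both WT, and its log2 fold change was 0.11 (95% interval -0.31 to 0.53). Without Gbp2b the summed chromosome 3 genes stood at 224 ± 27.1 in WT against 250.1 ± 16.8 CPM in HET (SD, 3 libraries each), with overlapping libraries. Of the 4 measured chromosome 3 genes, Gbp2b was the one with all HET libraries under all WT libraries.

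The chromosome 5 genes, close relatives that sit together on the minus strand, spread more widely among HET libraries. Their highest HET library was 1.95 to 8.25 times the lowest, against 1.15 to 1.27 times for Gbp7, Gbp3 and Gbp2. Gbp8 (ENSMUSG00000034438; chromosome 5, 105014150 to 105139540) measured 17.3, 13.4 and 19.3 CPM in WT 1, 3 and 4 against 11.1, 20.1 and 26.1 CPM in HET 1, 3 and 4. Gbp9 (ENSMUSG00000029298; 105077630 to 105139539) measured 16.4, 8.78 and 9.06 CPM in WT against 10.2, 14.8 and 19.9 CPM in HET. Gbp4 (ENSMUSG00000079363; 105115767 to 105139586), induced in activated macrophages, measured 24.2, 12.6 and 12.6 CPM in WT against 11.6, 19.0 and 41.5 CPM in HET. In all 3 genes HET 4 was the highest library, and in WT the highest was WT 1 for Gbp9 and Gbp4 and WT 4 for Gbp8. Gbp11 (ENSMUSG00000092021; 105323042 to 105346472), which GENCODE M21 lists as a polymorphic pseudogene and the deposited table as protein-coding, had 17, 5 and 5 counts in WT against 8, 30 and 24 counts in HET. That is 3.07, 0.915 and 1.19 CPM in WT against 0.794, 6.54 and 4.68 CPM in HET, with HET 1 lowest of all libraries.

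The groups overlapped for each of these 4 genes, with log2 fold changes of 0.18 for Gbp8, 0.37 for Gbp9, 0.52 for Gbp4 and 1.15 for Gbp11. All 4 intervals included 0, and the widest, that of Gbp11, ran from -0.58 to 2.87. Without HET 4 the values of Gbp4 and Gbp8 turned to -0.12 and -0.11, and without WT 3 that of Gbp7 turned to -0.08. Leaving out 1 library moved Gbp11 between 0.59 (without HET 3) and 1.88 (without WT 1), and Gbp9 between 0.12 (without HET 4) and 0.73 (without WT 1). With limma-voom Gbp11 had 0.43. The annotated models of Gbp8, Gbp9 and Gbp4 run through one another on one strand, but each pair shares only 60 or 61 exonic bases. The chromosome 5 genes are also more alike in sequence: pairwise coding identity ran from 89.6% for Gbp4 with Gbp9 to 94.0% for Gbp8 with Gbp11. On chromosome 3 it ran from 62.6% for Gbp2b with Gbp7 to 82.5% for Gbp2b with Gbp2. Of 50-base stretches, 21.2% in Gbp8, 19.2% in Gbp11, 12.8% in Gbp4 and 9.56% in Gbp9 occur in another gene, so single values on chromosome 5 are less certain than that of Gbp2b. On chromosome 3 the share was 4.79% in Gbp3, all with Gbp7, and 12.9% in Gbp7, mostly with the gene model Gm43802.

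**Figure D2:**
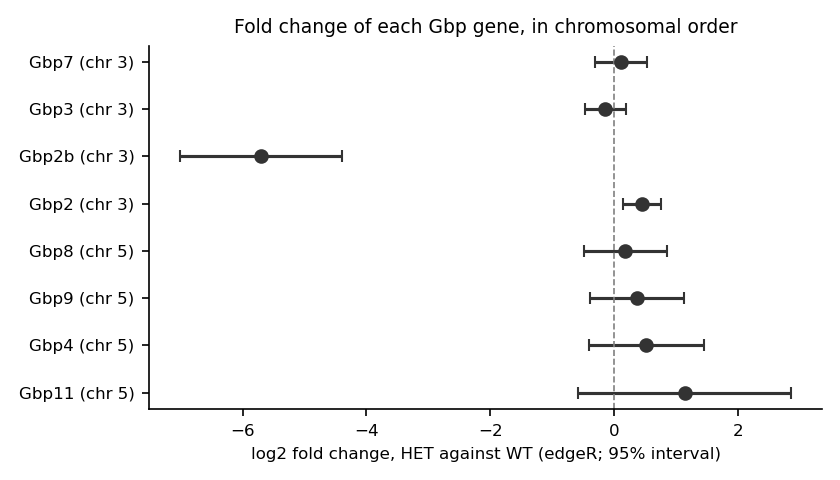
Log2 fold change of each Gbp gene in HET against WT (horizontal axis, edgeR, points with 95% intervals) in chromosomal order. Gbp2b lies at -5.71, while the other 7 genes lie between -0.14 and 1.15.

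The order of expression was compared per length, as CPM per kilobase of exonic sequence, in WT. That sequence joins the exons of all annotated transcripts, so Gbp8 counted 3443 bases against 2459 in its main transcript. For Gbp4 these lengths were 7494 and 4538 bases, and for Gbp2b 2823 in both. The order depends on that choice, and other lengths were not tried. Gbp2 led at 31.1 ± 1.25, followed by Gbp3 at 25.3 ± 3.41 and Gbp7 at 11.2 ± 3.66 (SD, n = 3 each). Gbp2b was the fourth at 8.14 ± 1.88, and its libraries (6.16 to 9.88) overlapped those of Gbp7 (7.98 to 15.2). Gbp8 followed at 4.84 ± 0.881, below each Gbp2b library. Gbp9 and Gbp4, at 2.21 ± 0.837 and 2.20 ± 0.889, did not differ beyond their spread, and Gbp11 was lowest at 0.641 ± 0.435. Other neighbours in this order did not overlap across the 3 WT libraries. In HET the same scale gave 42.7 ± 5.32 for Gbp2 and 22.9 ± 1.68 for Gbp3, while Gbp2b came last at 0.105 ± 0.183. Gbp2b was therefore a mid-range member of the family in WT.

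The 8 genes together summed to 331.6, 247.0 and 300.2 CPM in WT 1, 3 and 4 against 272.5, 303.6 and 361.5 CPM in HET 1, 3 and 4. The sums overlapped, with means of 293 ± 42.8 and 312.5 ± 45.2 CPM (SD, n = 3 each). The chromosome 5 genes summed to 61.0, 35.7 and 42.2 CPM in WT against 33.7, 60.4 and 92.2 CPM in HET, so that HET 4 stood highest and HET 1 lowest.

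**Figure D3:**
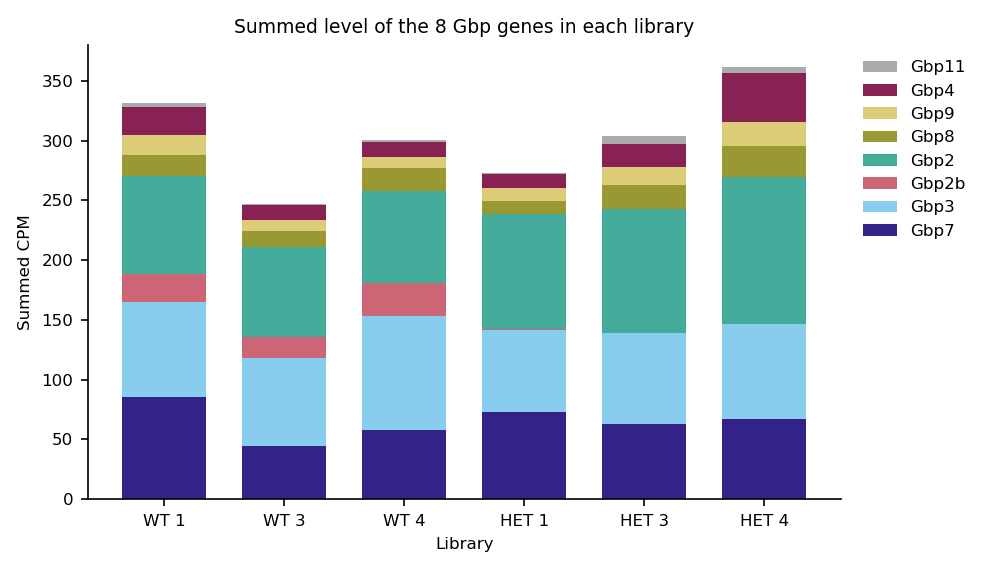
Stacked CPM of the 8 Gbp genes in each of the 6 libraries (vertical axis, summed CPM from 0). The Gbp2b segment is 17.4 to 27.9 CPM high in WT and at most 0.893 CPM in HET, while the whole stack runs from 247.0 to 361.5 CPM.

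The near-absence of Gbp2b was then set beside the rest of the table. Among 9618 genes with at least 20 counts in every WT library, Gbp2b was the only one whose pooled HET level was at most 5% of WT, at 2.01%. No gene was nearly absent from WT in the same way. The next in rank, Epb4.1l4b, had 9.44%, a value set by WT 1 (2860 CPM against 96.5 to 121 CPM in the other 5 libraries). P2ry10 came after it at 20.9%. The genes whose log2 levels ran most like Gbp2b over the 6 libraries were Tob2 (Pearson r = 0.994), Btg2 (0.991), Wnt10b (0.990), Nap1l3 (0.989) and Cry2 (0.986). With 3 high and 3 low libraries, any gene that separates the groups scores high on this measure. Their own differences were smaller, with log2 fold changes from -0.43 for Cry2 to -3.25 for Wnt10b, which is a low gene at 2.73 CPM in WT.

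**Figure D4:**
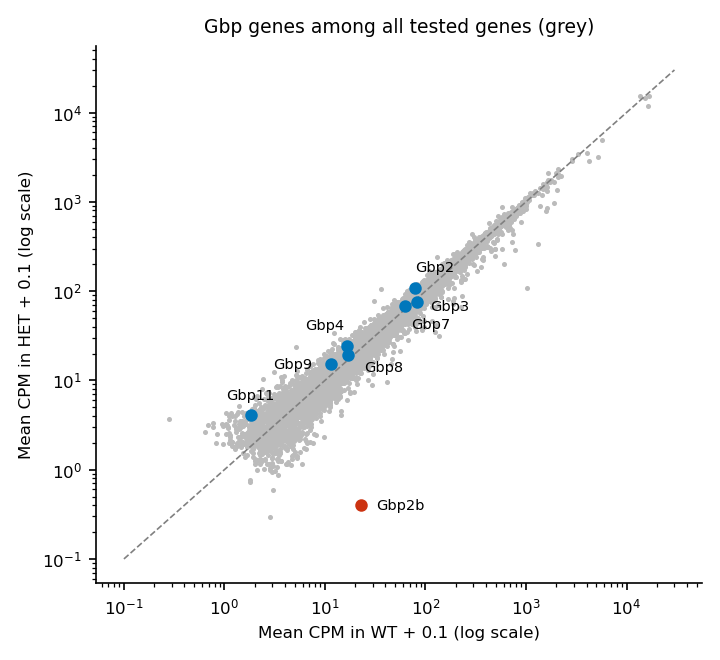
Mean CPM in HET against mean CPM in WT (both log scales, 0.1 added) for all tested genes (grey) and the Gbp genes (coloured). Gbp2b, at 23.0 CPM in WT and 0.298 CPM in HET, lies apart from the other Gbp genes, which sit near the diagonal.

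Genes beside the clusters did not show a like difference. Within 1 Mb of the chromosome 3 cluster 4 other genes were tested and 0 were called by edgeR, with log2 fold changes from -0.57 to 0.11. The nearest, Ccbl2, an aminotransferase gene 63.0 kb past the cluster, measured 12.4, 28.4 and 20.7 CPM in WT against 14.6, 16.1 and 10.7 CPM in HET. Gtf2b, which encodes the general transcription factor TFIIB, differed by -0.17 ± 0.18 (log2, SE), and Pdlim5, on the other side, 0.05 ± 0.23 (SE). Around the chromosome 5 cluster 12 genes were tested and 0 were called, with a range from -0.79 to 0.65 and a median of 0.08. The flanking genes Abcg3, Zfp951, Lrrc8b and Lrrc8c had values of 0.14, 0.65, 0.07 and 0.30. All HET libraries were above all WT libraries in 1 of the 12, Lrrc8c (4.69% over all genes). They were below them in 1, Zfp326 (5.64% over all genes), which had -0.34 and was named after its value was seen. None of these neighbours was nearly absent from either group.

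Of 23 receptors, kinases and factors that switch GBP genes on, 21 were listed and tested, without the receptor chains Ifngr2 and Ifnar1. Among them 0 were called by edgeR, DESeq2 or limma-voom, 3 had an unadjusted p under 0.05 (5.22% over all genes), and the median log2 fold change was 0.08 against 0.00 over all genes. Ifngr1, a chain of the interferon-gamma receptor, measured 125.9, 138.9 and 160.0 CPM in WT against 117.6, 111.2 and 126.5 CPM in HET. Irf1 had -0.26 ± 0.12 (SE, edgeR adjusted p = 0.950) and Stat2, of the type I interferon complex, 0.37 ± 0.16 (SE, adjusted p = 0.902). Irf3, a factor of nucleic acid sensing, measured 61.3, 71.9 and 74.2 CPM in WT against 95.7, 105.8 and 109.7 CPM in HET. Its groups did not overlap, yet its adjusted p was 0.172 (log2 fold change 0.58 ± 0.15 SE). Irf5 had 0.50 ± 0.24 (SE).

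Among 11 brakes on interferon signalling 0 were called by the 3 tools, and 1 had an unadjusted p under 0.05 (5.22% over all genes). This was Socs3, an inhibitor of JAK kinases, with 67.9 ± 18.3 in WT against 37.8 ± 8.20 CPM in HET (SD, 3 libraries each; edgeR adjusted p = 0.180). Without HET 1 Socs3 was called lower, by 1.03 on the log2 scale (adjusted p = 0.0300). Usp18, which blocks the type I receptor, had 0.52 ± 0.26 (SE), Ptpn1 0.22 ± 0.13 (SE) and Socs1 -0.57 ± 0.45 (SE). The list's median was -0.03.

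Other interferon-inducible GTPases, the immunity-related (IRG) family with the Mx and very large GTPases, were looked up under 25 names. Some of these names stand for the same gene, and the names found gave 16 genes, of which 11 were tested. By edgeR, DESeq2 and limma-voom 0 were called, and 1 (Mx1) had an unadjusted p under 0.05 (5.22% over all genes). The median log2 fold change was 0.31, with 9 of 11 values positive (50.7% over all genes), and the median was -0.06 without HET 4. Igtp, which guards and remodels pathogen vacuoles, measured 66.2, 53.2 and 49.8 CPM in WT against 54.9, 78.5 and 89.2 CPM in HET. Irgm1, a regulatory IRG protein, had 0.33 ± 0.17 (SE) and Gm4951 0.59 ± 0.37 (SE). Mx1 is an antiviral GTPase, and its promoter also drives Cre here; its transcript measured 4.15, 2.38 and 4.05 CPM in WT against 9.22, 6.11 and 16.8 CPM in HET (edgeR adjusted p = 0.450). The list's mean log2 level relative to WT was 0.35, -0.15 and -0.19 in WT 1, 3 and 4 against 0.05, 0.03 and 0.82 in HET 1, 3 and 4. HET 4 and WT 1 were thus the highest libraries of their groups here, as for Gbp4, Gbp9 and the chromosome 5 sum. The constitutive relatives, such as the atlastins, dynamins and mitofusins, had a median of 0.10 over 12 genes. Of these 0 were called by the 3 tools and 0 had an unadjusted p under 0.05 (5.22% over all genes). The examples of smallest p were Dnm3 (1.29 ± 0.88 SE), Ehd1 (0.23 ± 0.19), Opa1 (0.14 ± 0.13) and Ehd3 (0.20 ± 0.20).

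The wider list of 60 tested type I and II interferon response genes had a median of 0.10, with 44 positive and 16 negative values, against a median of 0.00 with 50.7% positive values over all genes. Of these 0 were called by edgeR, DESeq2 or limma-voom, and 7 of the 60 had an unadjusted p under 0.05, against 5.22% over all genes. All HET libraries were above all WT libraries in 6 genes (4.69% over all genes) and below them in 1 (5.64%). Zbp1, a nucleic acid sensor that triggers cell death, had 0.79 ± 0.26 (SE), Parp9 0.43 ± 0.17, Herc6 0.63 ± 0.27 and Isg20, an exonuclease, -0.57 ± 0.24. The list level was 0.12, -0.11 and -0.01 in WT 1, 3 and 4 against 0.08, 0.08 and 0.31 in HET 1, 3 and 4, so that WT 1 lay above HET 1 and HET 3.

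Downstream partners and modifiers of GBPs were tested in the same fit. Of 24 recruitment and cell death genes 0 were called by the 3 tools and 2, Zbp1 and the autophagy gene Map1lc3a (-0.68 ± 0.33 SE), had an unadjusted p under 0.05 (5.22% over all genes). The median was 0.06. The inflammasome caspase gene Casp4 had 0.20 ± 0.29 (SE) and Mb21d1, which encodes the DNA sensor cGAS, 0.61 ± 0.30 (SE). Gabarapl1, an autophagy relative of Map1lc3a, had -0.23 ± 0.14 (SE). Of 12 prenylation genes 0 were called by the 3 tools, 1 had an unadjusted p under 0.05 (5.22% over all genes), and the median was -0.06. That one was Fdps, an enzyme of lipid anchor precursor synthesis, at 4.21 ± 1.58 in WT against 1.11 ± 0.743 CPM in HET (SD, 3 libraries each; edgeR adjusted p = 0.806). Pggt1b, a subunit of the enzyme that geranylgeranylates proteins, had 0.67 ± 0.36 (SE). Rabggta and Fnta, subunits of other prenyltransferases, had -0.35 ± 0.22 and -0.15 ± 0.17 (SE).

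**Figure D5:**
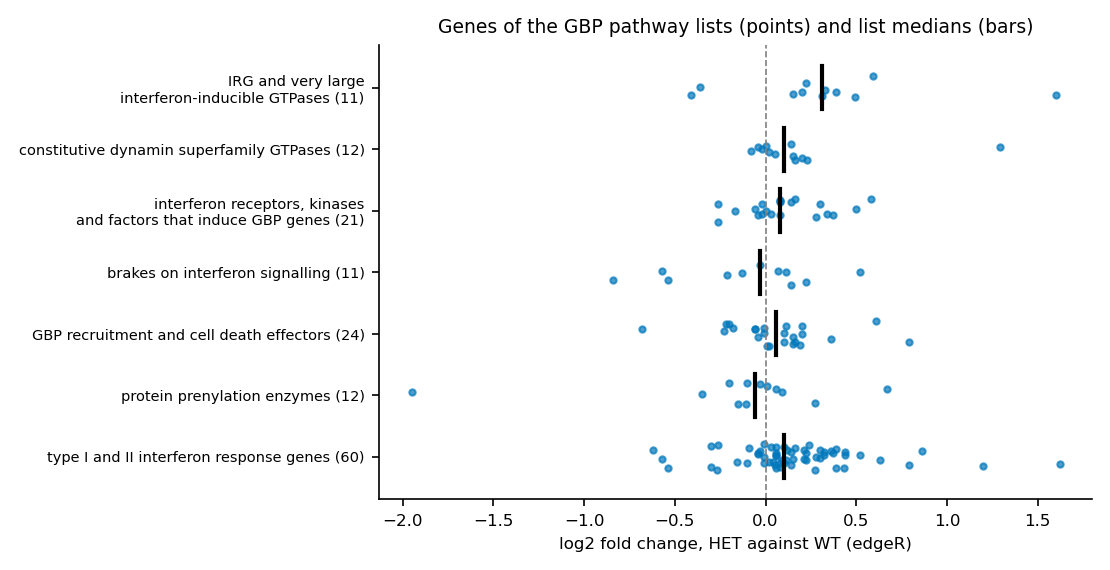
Log2 fold change in HET against WT (horizontal axis, edgeR) of each tested gene (points) in 7 lists around GBP function, with list medians (bars) and the number of genes tested. Medians run from -0.06 to 0.31, and no point comes near the -5.71 of Gbp2b, which is not drawn.

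The sort label was checked against marker genes. All 12 stem cell markers, Kit, Procr, Mecom and Hlf among them, were in the table, with summed levels from 3711 to 3934 CPM in WT and from 3491 to 4058 CPM in HET. One of them, Ptprc, was called higher by edgeR without WT 1 (log2 fold change 0.73, adjusted p = 0.0496). Cd48, on which cells were excluded, was at 2.55 ± 0.806 in WT against 6.97 ± 2.88 CPM in HET (SD, 3 libraries each). All HET libraries lay above all WT libraries for Cd48 (edgeR log2 fold change 1.41 ± 0.61 SE, unadjusted p = 0.0314, adjusted p = 0.849). Of 4 progenitor markers, Cd48 among them, 3 were listed, with Il7r not listed. Cd34 measured 229.9 to 273.1 CPM in WT and 241.4 to 281.5 CPM in HET. Flt3 measured 32.67 to 61.52 CPM in WT and 35.33 to 54.95 CPM in HET. Whether these transcripts came from other cells was not tested. GBPs are also expressed by mature immune cells. Of 10 macrophage markers 8 were listed, summing to 159 to 205 CPM in WT and 172 to 194 CPM in HET, with Adgre1 and Cd14 not listed. Of 10 T and NK cell markers 2 were listed, summing to 10.5 to 20.2 CPM in WT and 14.4 to 25.8 CPM in HET, with Cd3e, Cd3d and Cd3g not listed. Of 6 dendritic cell markers 2 were listed, summing to 41.0 to 64.2 CPM in WT and 38.6 to 61.4 CPM in HET. Each of these sums was mostly 1 gene. For macrophages this was Lyz2 (mean CPM 156.6 WT, 152.9 HET). For dendritic cells it was Flt3, also the progenitor marker above (47.86 WT, 46.23 HET). For T and NK cells it was Nkg7 (13.3 WT, 18.65 HET). The sums overlapped between groups, but they say little about the other listed markers. The part of these cells in the Gbp levels was not tested. Neutrophil markers (7 of 8 listed) varied most, from 57.5 to 512 CPM in WT and from 125 to 390 CPM in HET. B lineage (2 of 6), erythroid (3 of 7) and endothelial or stromal markers (3 of 6) summed to 13.2 to 23.4, 18.2 to 31.3 and 104 to 167 CPM over the 6 libraries. The last were the only sums here that did not overlap, at 104 to 136 CPM in WT and 166 to 167 CPM in HET, with Cdh5, Lepr and Col1a1 not listed. Most of them was Pecam1, at 109.5 ± 15.7 in WT against 147.5 ± 9.51 CPM in HET (SD, 3 libraries each; edgeR adjusted p = 0.464). Their part in the results was not tested.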

How the data were processed

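The authors deposited whole-number read counts per gene for 6 libraries (3 WT, 3 HET). FastQC, STAR 2.5.2b, edgeR, limma and mm10 are named in the submitters' processing notes, without roles; which counter, annotation and strand setting were used was not given in the sources used here. Every gene exceeded 1.01 CPM in 2 libraries, so low genes had been removed before deposit. Groups follow the genotype label, since the titles call HET libraries KO. Counts were fitted over all genes with edgeR 4.0.16 in R 4.3.3 (filterByExpr, which removed 910 genes; TMM; robust quasi-likelihood F test, two-sided, Benjamini-Hochberg, threshold 0.05), with DESeq2 1.42.0 and limma-voom (limma 3.58.1) as alternatives. The edgeR test gives no standard error, so it was derived from the fold change and the F statistic, and intervals of fold changes use it. The fold change depends on the prior count while F does not, so these errors and intervals are approximate, most of all at low counts. Intervals on counts are exact, while the limit for a count of 0 was set at 3 counts. Both cover counting error only, since no molecular identifiers are recorded. Positions, exonic lengths and transcripts came from GENCODE M21 (GRCm38, as mm10), and 18 symbols turned into dates were restored. Coding sequences were aligned with Biopython 1.88. No RefSeq protein was used.

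The members and gene lists were chosen with earlier results of these data known. Named genes were the 8 members, the 4 genes with the lowest p in each list, the flanking genes, the genes nearly absent from one group and the 5 most like Gbp2b. Ifngr1, Casp4, Epb4.1l4b, P2ry10 and the marker genes were named outside that rule after their values were seen. The fit was tested on simulated data with known changes. In 3 simulations with 200 changed genes each, 505 genes were called, of which 43 were false. That share of false calls is above the threshold of 0.05. Of 300 genes changed 4-fold 273 were recovered, and of as many changed 2-fold 189, so changes of this size can be missed. In all 15 alternatives were tried: other scalings, filters, tools and prior counts, a replicate block, and leaving out each library.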

Additional observations from a re-analysis of the deposited data

How the results depend on the processing

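Gbp2b was lower and past the threshold in each of the 14 alternatives that tested it, with log2 fold changes from -6.69 to -4.26 under other scaling, filters, tools and prior counts and from -9.84 (without HET 1, where every remaining HET count is 0 and the fitted value depends on the prior count) to -5.27 (without HET 4) when 1 library was left out. Gbp2b was chosen for this difference in the same libraries, so these repeated calls only describe it. It was not tested where at least 10 counts in at least 5 libraries were required, nor was Gbp11. Gbp2 stayed between 0.36 and 0.53 and did not pass in any alternative. The sign turned for Gbp4 without HET 4 (-0.12; 0.91 without WT 1), for Gbp8 without HET 4 (-0.11; 0.47 without HET 1) and with limma-voom (-0.01), and for Gbp7 without WT 3 (-0.08; 0.40 without WT 1). Over all genes 28 were called, against 53 with DESeq2 and 10 to 68 when 1 library was left out (11 without WT 1, 68 without HET 1, 10 without HET 4); the cause was not tested. With the library number as a replicate block 49 genes were called and Gbp2b had -5.91. Same-numbered libraries deviated from their group means with correlations of 0.112, -0.0435 and 0.0720 for numbers 1, 3 and 4. Not every library correlated best with its own number. These values, from groups of 3 centred on their own means, cannot settle whether the numbers mark pairs. At 10% of the other group's level in place of 5%, 2 genes counted as nearly absent, and at 2% none, Gbp2b being just above. Gbp11 rests on 5 to 30 counts per library, and the 95% interval of its fold change (-0.58 to 2.87) is the widest of the 8 genes.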
